A study of Mus musculus with 8 samples.

Results

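The 10 genes described here encode enzymes that detoxify carbonyls, quinones, epoxides and peroxides or supply their thiol cofactors: Cbr3, Cbr1, Nqo1, Ephx1, Aldh3a1, Akr1b8, Txnrd1, Gclm, Prdx1 and Prxl2a. They were taken by symbol from the array annotation, which gave 14 of the 45281 probes to them, and each probe was kept apart. Cbr3, Nqo1, Prdx1 and Prxl2a had 2 probes each, numbered by brightness, and the other 6 genes had 1. RNA was measured on Illumina bead arrays in mouse pre-iPSCs, cells stalled partway to pluripotency, at day 0 of a reprogramming experiment. The 8 arrays held 4 groups of 2, which carried Nanog with Sin3a (Nanog+Sin3a), Nanog with an empty vector (Nanog), Sin3a with an empty vector (Sin3a), or empty vectors alone (EV). All groups shared a female 129/MF1 neural stem cell origin, an Oct4-GFP-IRES-puro reporter, PiggyBac vectors with a CAG promoter, PiggyBac transposase, hygromycin and/or blasticidin selection, and serum with LIF. The labels describe the transfected cells as stable lines, and do not say whether a line was 1 clone or whether the arrays of a group came from separate cultures. Errors and p-values therefore measure only the spread between these arrays.

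Carbonyl reductases, aldo-keto reductases and aldehyde dehydrogenases convert reactive aldehydes and ketones to alcohols or acids. NAD(P)H quinone dehydrogenase 1, the product of Nqo1, reduces quinones without releasing radical intermediates, and microsomal epoxide hydrolase, the product of Ephx1, opens epoxides. Peroxiredoxins remove peroxides and are recharged by thioredoxin and its reductase, while glutathione is made by an enzyme whose modifier subunit is encoded by Gclm. Many of these genes are textbook targets of the transcription factor Nrf2, which binds antioxidant response elements and is held in check by Keap1. Some, such as Nqo1 and Aldh3a1, are also targets of the Ah receptor with its partner Arnt. Nanog is a homeodomain protein of pluripotent cells, and Sin3a assembles a co-repressor complex with histone deacetylases.

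The values are background-subtracted intensities on a linear scale, so some fall below 0. Values under 16 were raised to 16, called the floor, before log2 was taken. The brighter Nanog probe read 289.5 and 285.2 in Nanog+Sin3a and 364.8 and 485.8 in Nanog, against -7.3 and -12.2 in Sin3a and -3.6 and -5.4 in EV. A second Nanog probe showed no such difference, at 5.6 and 13.6 in Nanog+Sin3a and 21.0 and 13.0 in Nanog, against 10.2 and -4.8 in Sin3a and 14.4 and 13.8 in EV. The Sin3a probe read 1484.7 and 1483.3 in Nanog+Sin3a and 1182.1 and 1141.6 in Sin3a, against 344.4 and 472.5 in Nanog and 329.3 and 261.8 in EV. Of 10 pluripotency markers, Pou5f1 and Klf4 were above the floor on all 8 arrays, Dppa3 and Utf1 on none, and Esrrb only on the second Sin3a array, at 84.7 in 1 of 2 probes. Of 6 measured neural stem cell markers, Egfr was above it on all arrays, and Fabp7 and Pax6 on none.

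The second Sin3a array was noisy at low and middle intensities. Among 7812 probes of middle intensity, 80.1% differed more than 2-fold between the Sin3a arrays, while 0.205% did between the EV arrays. For the 2670 probes with a mean log2 intensity above 9, called bright, the arrays of each group correlated at 0.981 to 0.989 across probes. Differences that do not involve Sin3a alone were therefore fitted on 7 arrays, without that array (18558 probes above the floor on at least 2 arrays). Those that do involve it were fitted on 8 arrays and the bright probes only. Of the 14 member probes, 13 were tested in the 7-array fit, and 4 were bright: Aldh3a1, Gclm and the brighter probes of Cbr3 and Prdx1. The dimmer Nqo1 probe passed the floor only on the second Sin3a array and was not tested. In this text a probe rose, fell or passed when limma's adjusted p, over all probes of its fit, was under 0.05. Because the members were chosen with results of these arrays known, their passes describe them and are not tests of the choice.

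**Figure D1:**
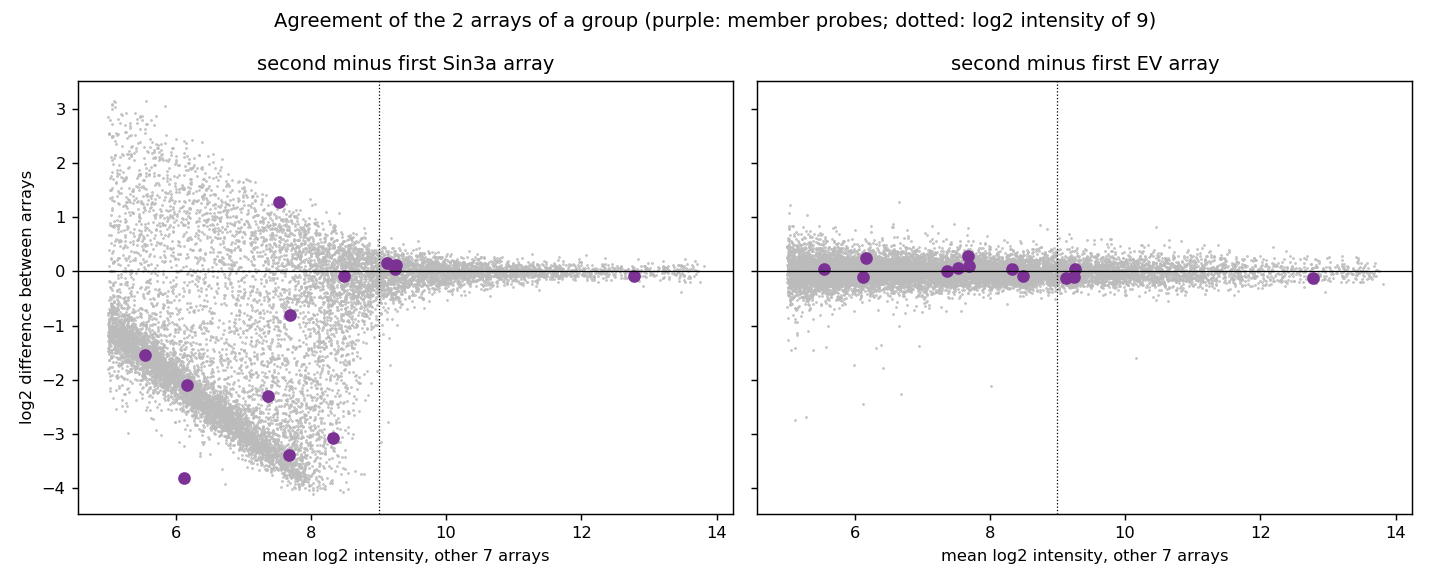
Second minus first array on the log2 scale (y axis) against the mean log2 intensity of the 7 arrays other than the second Sin3a array (x axis, from 5 up), for Sin3a and for EV, with 1 grey point per probe, member probes in purple and a dotted line at 9. The Sin3a panel spreads widely left of the line, member probes included, and narrows right of it, while the EV panel stays narrow throughout.

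The promoter windows of the genes with the clearest values are shown first, since Nrf2 binds a short sequence, the antioxidant response element. The genes whose windows are printed were chosen by their measured intensities in the groups. A match, or the lack of one, does not decide whether a gene is an Nrf2 target. RefSeq windows on GRCm38.p6, from 250 bases before to 50 after a start site, were found for 9 of the 10 genes, 15 windows in all, and none was found for Aldh3a1. The antioxidant response element core TGACNNNGC was searched on both strands (read as GCNNNGTCA on the other strand), and capitals mark a match. The first 3 windows belong to the genes that were highest with both transgenes, the fourth to a bright gene that stayed near its EV level, and the last, 1 of 5 windows of its gene, to the gene with the largest fall. Intensities do not choose between the windows of 1 gene. That last window holds a match, while others of its 5 do not.
Cbr3 promoter, chr16:93682969-93683268 on the plus strand: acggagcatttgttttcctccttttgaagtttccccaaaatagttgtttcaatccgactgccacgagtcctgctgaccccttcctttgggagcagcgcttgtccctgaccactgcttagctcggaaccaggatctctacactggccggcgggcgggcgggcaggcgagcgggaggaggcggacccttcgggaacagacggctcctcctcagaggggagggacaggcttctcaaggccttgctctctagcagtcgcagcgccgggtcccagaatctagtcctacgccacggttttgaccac
Ephx1 promoter, chr1:181017520-181017819 on the minus strand: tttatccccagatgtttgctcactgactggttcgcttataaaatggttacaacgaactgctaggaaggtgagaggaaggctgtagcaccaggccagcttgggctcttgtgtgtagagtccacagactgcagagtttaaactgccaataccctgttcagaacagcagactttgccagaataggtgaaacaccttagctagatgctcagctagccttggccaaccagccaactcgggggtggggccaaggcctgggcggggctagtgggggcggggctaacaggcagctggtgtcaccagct
Nqo1 promoter, chr8:107403156-107403455 on the minus strand: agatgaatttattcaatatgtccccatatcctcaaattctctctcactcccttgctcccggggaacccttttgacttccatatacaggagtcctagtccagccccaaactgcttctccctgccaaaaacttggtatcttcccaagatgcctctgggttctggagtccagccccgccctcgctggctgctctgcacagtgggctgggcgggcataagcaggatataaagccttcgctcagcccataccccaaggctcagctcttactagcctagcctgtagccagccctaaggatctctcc
Prdx1 promoter, chr4:116685349-116685648 on the plus strand: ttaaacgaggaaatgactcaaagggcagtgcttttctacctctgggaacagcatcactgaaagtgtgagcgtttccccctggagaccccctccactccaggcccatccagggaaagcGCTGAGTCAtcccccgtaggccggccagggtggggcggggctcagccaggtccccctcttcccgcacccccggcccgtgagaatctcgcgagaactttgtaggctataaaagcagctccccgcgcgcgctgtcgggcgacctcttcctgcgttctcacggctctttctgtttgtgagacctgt
Prxl2a promoter, chr14:41008217-41008516 on the minus strand: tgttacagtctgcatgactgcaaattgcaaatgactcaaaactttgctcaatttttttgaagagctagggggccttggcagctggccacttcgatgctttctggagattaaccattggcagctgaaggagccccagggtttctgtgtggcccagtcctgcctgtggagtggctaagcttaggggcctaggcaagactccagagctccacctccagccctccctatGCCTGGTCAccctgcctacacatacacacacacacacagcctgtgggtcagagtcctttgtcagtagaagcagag
Of the 9 genes, 4 had a match in at least 1 window, against 14.0% of 27025 genes with a window in the same table, and 5 of 15 windows did, against 12.4% of 32851. The matches were in Gclm, Prdx1, 1 of 3 windows of Txnrd1 and 2 overlapping windows of Prxl2a, which hold the same site. A gene with more windows has more chances of a match, so the shares over genes are not strictly alike. The printed Prdx1 match begins 133 bases before the start site and the Prxl2a match 25 bases before it. No match lay in the windows of Cbr3, Ephx1, Nqo1, Cbr1 or Akr1b8, which says only that these letters are not in these 300 bases. The dioxin response element core GCGTG, searched on both strands and never overlapping a match of the first motif, lay in windows of 5 of the 9 genes (Akr1b8, Cbr1, Gclm, Prxl2a and Txnrd1), against 35.2% of genes in the table. None of these matches is shown to be a bound site.

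Cbr3, which encodes a carbonyl reductase that uses NADPH, was the member with the largest rise, and its brighter probe was ordered by transgene. The probe read 1330.2 and 1456.8 in Nanog+Sin3a, 661.1 and 727.7 in Nanog and 429.3 and 468.1 in Sin3a, against 276.7 and 284.5 in EV. No 2 groups overlapped. Group means were 1394 ± 89.5 in Nanog+Sin3a, 694.4 ± 47.1 in Nanog, 448.7 ± 27.4 in Sin3a and 280.6 ± 5.52 in EV (SD, n = 2 each). Cbr3 rose 4.96-fold in Nanog+Sin3a against EV (log2 2.31, SE 0.10) and 2.47-fold in Nanog against EV (log2 1.31, SE 0.10). The dimmer probe had the same order on the 7 arrays, at 332.9 and 317.0 in Nanog+Sin3a, 180.1 and 169.1 in Nanog and 141.4 on the first Sin3a array, against 83.7 and 84.3 in EV. It read 28.7 on the second Sin3a array, below both EV arrays. It rose 3.87-fold in Nanog+Sin3a against EV (log2 1.95, SE 0.11) and 2.08-fold in Nanog against EV (log2 1.05, SE 0.11). In RNA from whole cultures, more cells with a transcript and more transcript per cell cannot be told apart.

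Between Nanog+Sin3a and Nanog, Cbr3 differed 2.01-fold in the brighter probe (log2 1.01, SE 0.10) and 1.86-fold in the dimmer (0.90, SE 0.11). Neither probe passed in the 7-array fit, in which limma called 3 of 18558 probes, or 0.0162%, for this comparison. The brighter probe did pass on the bright probes of all 8 arrays, with 7 of 2670 called (0.262%). Among bright probes, Cbr3 rose 3.11-fold in Nanog+Sin3a against Sin3a (log2 1.63, SE 0.14) and 1.60-fold in Sin3a against EV (log2 0.68, SE 0.14). The probe counted as bright by its mean over all arrays, which the groups with Nanog raised. Its Sin3a and EV values all lay below the bright limit, which was set because the second Sin3a array was noisy at lower intensities. The bright limit therefore does not guard the rise in Sin3a against EV from that noise. The Sin3a effect with Nanog minus that without it was 0.33 on the log2 scale (SE 0.19), which did not pass. Limma called 1 of 2670 bright probes (0.0375%) for that difference. The rise in Sin3a against EV was lost without either Nanog+Sin3a array, either EV array or the second Sin3a array.

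Cbr1, the closely related carbonyl reductase on the same chromosome, had no such order. It read 183.7 and 202.6 in Nanog+Sin3a, 229.5 and 201.5 in Nanog and 183.3 on the first Sin3a array, against 195.8 and 240.1 in EV. The groups overlapped, and the second Sin3a array stood apart at 17.4. Its log2 differences were -0.17 (SE 0.15) for Nanog+Sin3a against EV and -0.01 (SE 0.15) for Nanog against EV.

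Aldh3a1, an aldehyde dehydrogenase known for its high level in the cornea, was lower in both groups that carried Nanog. It read 427.8 and 413.1 in Nanog+Sin3a and 448.7 and 373.3 in Nanog, against 882.0 and 986.2 in Sin3a and 828.8 and 758.7 in EV. All 4 arrays with the Nanog transgene lay below all 4 without it. Aldh3a1 fell by 0.92 on the log2 scale in Nanog+Sin3a against EV (SE 0.11, 1.89-fold lower) and by 0.95 in Nanog against EV (SE 0.11, 1.94-fold lower). Among bright probes it fell by 1.15 in Nanog+Sin3a against Sin3a (SE 0.14, 2.22-fold lower). Nanog+Sin3a and Nanog differed by 0.04 (SE 0.11) and Sin3a and EV by 0.23 (SE 0.14), and neither difference passed.

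Akr1b8, an aldo-keto reductase that reduces aldehydes, was lowest with both transgenes. It read 124.9 and 134.6 in Nanog+Sin3a, 234.9 and 257.9 in Nanog and 220.1 on the first Sin3a array, against 257.4 and 275.5 in EV. The second Sin3a array read 126.9, inside the Nanog+Sin3a range. Akr1b8 fell by 1.04 in Nanog+Sin3a against EV (SE 0.11, 2.05-fold lower). Nanog against EV gave -0.11 (SE 0.11), and Nanog+Sin3a against Nanog gave -0.92 (SE 0.11), and neither passed.

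**Figure D2:**
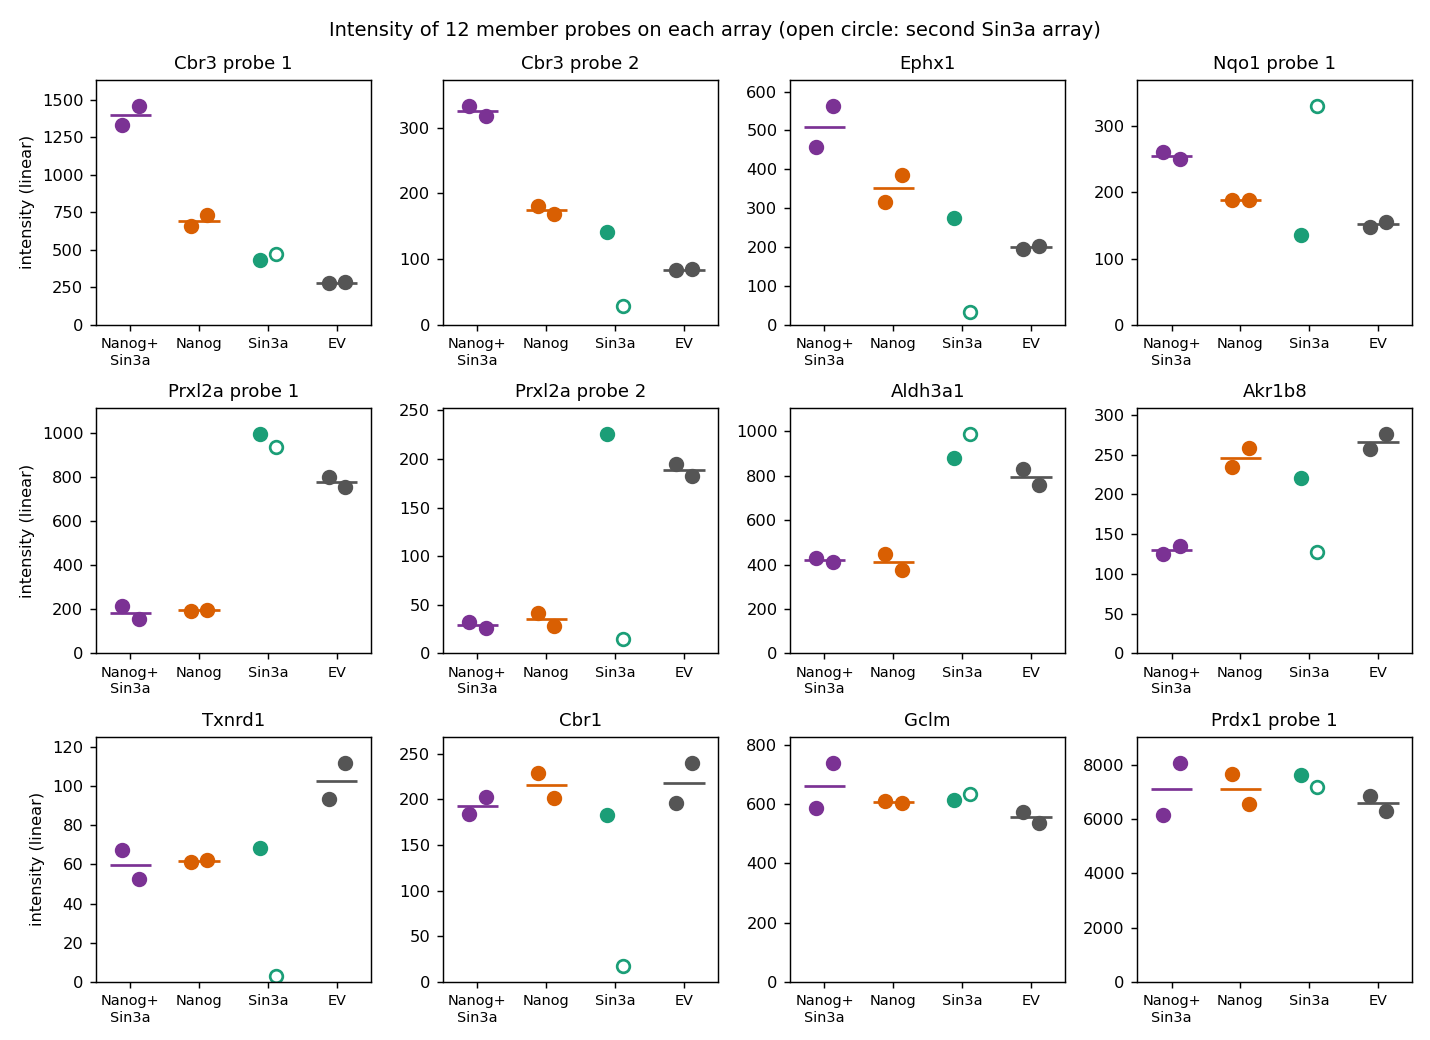
Intensity of 12 member probes on every array (y axis, linear and starting at 0), 1 panel per probe and 1 point per array, with groups from left to right Nanog+Sin3a, Nanog, Sin3a and EV and the second Sin3a array drawn open. Lines are group means, drawn for the groups other than Sin3a. Cbr3 descends from Nanog+Sin3a to EV in both probes on the 7 arrays, while Prxl2a and Aldh3a1 are low in both groups with Nanog.

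Ephx1 and Nqo1, the epoxide and quinone enzymes, were also highest with both transgenes. Ephx1 read 456.2 and 562.8 in Nanog+Sin3a, 316.7 and 385.9 in Nanog and 274.7 on the first Sin3a array, against 195.6 and 202.6 in EV. The 7 arrays kept these groups apart, and the second Sin3a array read 32.6. Ephx1 rose 2.55-fold in Nanog+Sin3a against EV (log2 1.35, SE 0.15). In Nanog against EV it was 1.76-fold higher (0.81, SE 0.15), which did not pass.

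The brighter Nqo1 probe read 261.2 and 249.6 in Nanog+Sin3a and 188.4 on both Nanog arrays, against 148.0 and 155.7 in EV. The Sin3a arrays disagreed, at 134.9 and 330.1, below and above all other arrays. Nqo1 rose 1.68-fold in Nanog+Sin3a against EV (log2 0.75, SE 0.11). That call was lost without the first Nanog array, and also without any 1 of the Nanog+Sin3a or EV arrays. The log2 difference stayed between 0.71 and 0.79 in the fits without 1 array. Nanog against EV gave 0.31 (SE 0.11), and Nanog+Sin3a against Nanog gave 0.44 (SE 0.11), and neither passed. The dimmer Nqo1 probe stayed between -10.5 and 12.7 on the 7 arrays.

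Prxl2a, a peroxiredoxin-like gene, had the largest fall among the members, and both probes showed it on the 7 arrays. Its brighter probe read 214.3 and 154.9 in Nanog+Sin3a and 194.0 and 198.1 in Nanog, against 993.1 and 935.7 in Sin3a and 799.3 and 755.3 in EV. All 4 arrays with the Nanog transgene lay far below the other 4. It fell by 2.09 in Nanog+Sin3a against EV (SE 0.16, 4.26-fold lower) and by 1.99 in Nanog against EV (SE 0.16, 3.96-fold lower). The dimmer probe read 32.1 and 26.4 in Nanog+Sin3a, 41.8 and 27.8 in Nanog and 225.2 on the first Sin3a array, against 195.2 and 182.7 in EV. It read 15.0 on the second Sin3a array. It fell by 2.70 in Nanog+Sin3a against EV (SE 0.24) and by 2.47 in Nanog against EV (SE 0.24). Nanog+Sin3a and Nanog differed by -0.11 (SE 0.16) in the brighter probe and -0.23 (SE 0.24) in the dimmer, and neither passed.

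The other thiol genes stayed nearer their EV levels. Txnrd1, the cytosolic thioredoxin reductase, read 67.4 and 52.4 in Nanog+Sin3a and 61.0 and 62.3 in Nanog, against 93.7 and 111.9 in EV, and 68.6 and 2.7 on the Sin3a arrays. Every other array lay below both EV arrays, but the log2 differences of -0.78 for Nanog+Sin3a and -0.73 for Nanog against EV (SE 0.20 each) did not pass. Gclm, the modifier subunit of glutamate-cysteine ligase, read 586.6 and 740.2 in Nanog+Sin3a, 612.2 and 604.7 in Nanog and 615.6 and 636.7 in Sin3a, against 574.4 and 537.5 in EV. The 2 EV arrays were the lowest, and the log2 differences from EV were 0.25 with both transgenes, 0.13 with Nanog (SE 0.12 each) and 0.17 with Sin3a (SE 0.14), none of which passed.

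Prdx1, a peroxiredoxin of the cytosol, had the brightest member probe, with values from 6165.8 to 8084.6 in Nanog+Sin3a and from 6577.3 to 7678.2 in Nanog. They ran from 7195.9 to 7641.5 in Sin3a and from 6303.7 to 6868.6 in EV. The groups overlapped, and the log2 differences from EV were 0.10 with both transgenes, 0.11 with Nanog (SE 0.15 each) and 0.17 with Sin3a (SE 0.11). The dimmer Prdx1 probe read 43.3 and 74.9 in Nanog+Sin3a, 34.6 and 53.7 in Nanog and 46.7 on the first Sin3a array, against 40.9 and 42.0 in EV, and did not pass either.

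**Figure D3:**
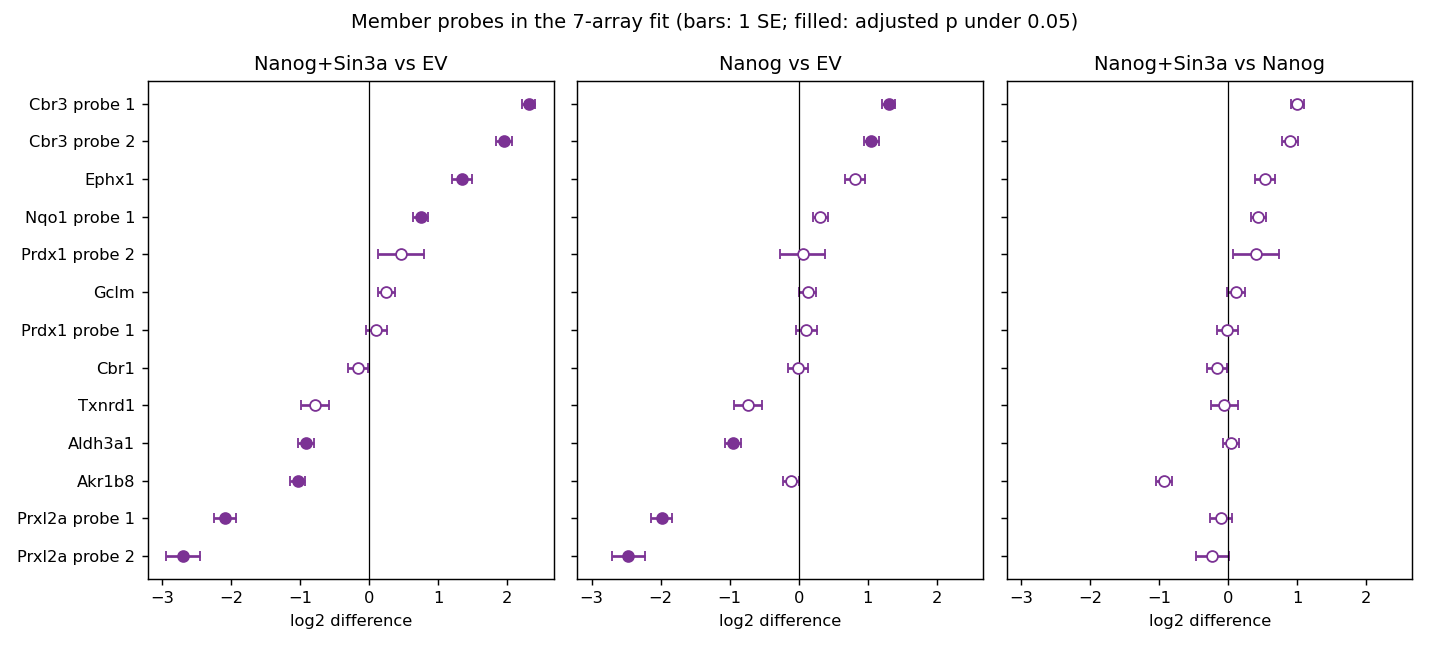
Log2 difference of each member probe (x axis, bars are 1 SE) in the 7-array fit, 1 panel per comparison (Nanog+Sin3a against EV, Nanog against EV, Nanog+Sin3a against Nanog), with probes down the page and passed probes filled. Cbr3 lies farthest right in Nanog+Sin3a against EV, at 2.31 in its brighter probe, and Prxl2a farthest left, at -2.70 in its dimmer probe.

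By count, 4 member probes rose and 4 fell among the 13 tested in Nanog+Sin3a against EV, where limma called 5.87% of all probes, 2.8% higher and 3.08% lower. In Nanog against EV 2 rose and 3 fell, where it called 2.04%, 1.08% higher and 0.959% lower. No probe passed in Nanog+Sin3a against Nanog, with 5 of 13 at an unadjusted p under 0.05, beside 10.4% of all probes. Among the 4 bright probes, 1 rose and 1 fell in Nanog+Sin3a against Sin3a, where limma called 11.6% (5.84% higher and 5.73% lower), and 1 rose in Sin3a against EV, where it called 0.15%. The difference of Sin3a effects had 0 of 4, also at an unadjusted p under 0.05, where 6.37% of all bright probes lay. The median log2 difference of the 13 probes was 0.10 in Nanog+Sin3a against EV and 0.06 in Nanog against EV, beside 0.00 over all probes tested in each. The 2 comparisons share the EV arrays, and the members were chosen with these results known, so nothing is read from the counts. The 8 calls in Nanog+Sin3a against EV fell to 0 without any 1 of its own arrays, and the 5 in Nanog against EV to 0 without any 1 of its own and to 1, the brighter Prxl2a probe, without either Nanog+Sin3a array. With both transgenes against EV, the 8 called probes kept their sign in every fit without 1 array, with the brighter Cbr3 probe from 2.25 to 2.38 and the brighter Prxl2a probe from -2.33 to -1.86. Of those not called, Gclm ran from 0.08 to 0.41 and the dimmer Prdx1 probe from 0.06 to 0.85, and the brighter Prdx1 probe, from -0.09 to 0.30, changed sign.

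Dcn, from a list of fibroblast markers, and Egfr, from the list for the neural stem cell origin, had levels that differed beside these values. The summed level of 7 fibroblast markers was 106.1 to 121.2 in Nanog+Sin3a, 52.4 to 65.5 in Nanog and 21.4 to 210.7 in Sin3a, against 24.0 to 29.0 in EV. Dcn, the proteoglycan decorin, made up most of the sum in Nanog+Sin3a, with its brightest probe at 92.6 and 79.4 there and at 16.6 and 34.4 in Nanog, against 14.3 and -3.1 in EV. Col1a2 and Col3a1 were at the floor on all arrays, and Col1a1, Lum and Postn were at it in Nanog+Sin3a and EV. Pdgfra overlapped between groups near the floor, at 13.5 and 31.5 in Nanog+Sin3a and 21.7 and -7.8 in Nanog, against 8.4 and 24.0 in EV. The highest Sin3a sum was mostly a Postn reading of 174.2 on the second Sin3a array. The summed level of 6 neural stem cell markers, most of it Egfr, was 432.0 to 458.8 in Nanog+Sin3a, 462.7 to 515.6 in Nanog and 808.3 to 817.7 in Sin3a, against 722.1 to 772.7 in EV. Of 4 macrophage markers, Cd14 and Csf1r were at the floor on all arrays, and Ptprc and Lyz2 were at it on the 7 arrays except for a Ptprc reading of 25.0 in Nanog. The macrophage sums were 15.5 to 19.3 in Nanog+Sin3a, 15.4 to 34.5 in Nanog and 0 to 71.2 in Sin3a, against 0 to 8.5 in EV. They were made up of readings below the floor, apart from that Ptprc reading and a Lyz2 reading of 41.2 on the second Sin3a array. No shift is read from them. The part of Dcn and Egfr in the members' values was not tested. Gsta2, an alpha-class glutathione S-transferase that conjugates electrophiles, had the same order as Cbr3 on the 7 arrays. It read 234.8 and 228.8 in Nanog+Sin3a, 46.3 and 43.3 in Nanog and 19.5 on the first Sin3a array, against 8.1 and -0.6 in EV. Both EV readings were below the floor, so the step from Sin3a to EV is a difference near it. For Gsta1, 1 probe broke the order, at 14.2 on the first Sin3a array against 21.1 and 22.0 in EV. The other Gsta1 probes kept it on the 7 arrays.

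Other genes of these pathways were taken from 12 lists with 126 genes, of which 115 had a probe and 85, with 145 probes, were tested in the 7-array fit. In Nanog+Sin3a against EV 7 genes rose and 5 fell, 8.97% of the list probes against 5.87% of all probes. Their median log2 difference was 0.11, beside 0.00 over all probes. In Nanog against EV 2 rose and 1 fell, 2.76% of the list probes against 2.04% of all. In Nanog+Sin3a against Nanog 0 of 145 passed, with 17 at an unadjusted p under 0.05, beside 10.4% of all probes. With 1 array left out at a time, the 13 called probes with both transgenes became 0 to 14 and the 4 with Nanog became 0 to 4.

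Among carbonyl reductases 2 of 5 genes rose with both transgenes and 0 fell. Cbr2, a mitochondrial carbonyl reductase, read 102.4 and 133.4 in Nanog+Sin3a, against 63.7 and 50.7 in EV (log2 1.04, SE 0.21, limma adjusted p = 0.0420). Dhrs1, a short-chain dehydrogenase, read 151.5 and 186.0 in Nanog+Sin3a, against 97.5 and 106.2 in EV (0.72, SE 0.15, 0.0450). Of 12 aldehyde dehydrogenases 1 rose, Aldh2, the mitochondrial enzyme that clears acetaldehyde (0.61, SE 0.09, 0.0185). Neither the 5 aldo-keto reductases nor the 6 other quinone and epoxide genes had a call in any 7-array comparison. Akr1c14 (1.07, SE 0.47, adjusted p = 0.228) and Cryz, a quinone reductase (-0.68, SE 0.24, 0.155, and -0.25 to 0.13 in its other probes), each had the largest difference of its own list with both transgenes. Akr1b10, of the aldo-keto list, gave -0.79 (SE 0.48), and -0.04 in another probe.

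Among 15 peroxiredoxin and thioredoxin genes 1 rose and 2 fell with both transgenes. Txnip, which binds and inhibits thioredoxin, rose in both groups with Nanog. It read 437.6 and 479.3 in Nanog+Sin3a and 474.3 and 562.0 in Nanog, against 268.0 and 226.9 in EV. The differences from EV were 0.89 with both transgenes (SE 0.13, limma adjusted p = 0.0201) and 1.07 with Nanog (SE 0.13, 0.0190). Another probe gave 0.68 with both (adjusted p = 0.0609) and 1.02 with Nanog (0.0352). The glutaredoxins Glrx2 (-0.74, adjusted p = 0.0307) and Glrx3 (-0.60, 0.0400) fell with both transgenes, while other probes gave 0.05 for Glrx2 and -0.19 and 0.00 for Glrx3.

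Of 7 genes of glutathione synthesis and peroxidases, 1 rose and 1 fell with both transgenes. They were the subunits of the carrier that brings cystine into the cell. Slc7a11, its light chain, rose by 0.92 (SE 0.16, limma adjusted p = 0.0306) and by 0.91 in another probe (0.0182), and Slc3a2, its heavy chain, fell by 0.86 (SE 0.18, 0.0475). Slc3a2 read 65.7 and 51.0 in Nanog+Sin3a, against 102.2 and 108.0 in EV. Of 8 haem and iron genes 1 rose in both groups with Nanog. This was Blvrb, biliverdin reductase B, at 268.2 and 259.3 in Nanog+Sin3a and 213.8 and 211.5 in Nanog, against 109.6 and 115.4 in EV. Its differences from EV were 1.23 (SE 0.11, adjusted p = 0.00473) and 0.92 (SE 0.11, 0.0174), with 0.88 (0.110) and 0.71 (0.238) in a dimmer probe.

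Among 10 genes of Nrf2 and its regulators, 1 fell with both transgenes and 0 rose. Bach1, a repressor that competes at antioxidant response elements, read 7.6 and 12.1 in Nanog+Sin3a, below the floor, and 37.1 and 31.8 in Nanog, against 34.2 and 35.8 in EV. Its fall was at least 2.19-fold (log2 -1.13, SE 0.19, limma adjusted p = 0.0261). Of 3 Ah receptor genes, Arnt fell in 1 of 4 probes, at -1.90 with both transgenes (SE 0.26, 0.0160) and -1.69 with Nanog (SE 0.26, 0.0321), while the others gave -0.71 to 0.16 and -0.70 to 0.20. That probe read 67.2 and 81.2 in Nanog+Sin3a and 97.3 and 75.1 in Nanog, against 218.8 and 348.9 in EV. Of 5 conjugation and export genes Ugt1a6b, a glucuronosyltransferase, rose with both transgenes (1.06, SE 0.18, 0.0293), and its near-identical neighbour Ugt1a6a shares much of its sequence, so the signal may be split between them. The superoxide dismutases with catalase (3 genes) and the NADPH supply genes (6) had no call in a 7-array comparison.

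**Figure D4:**
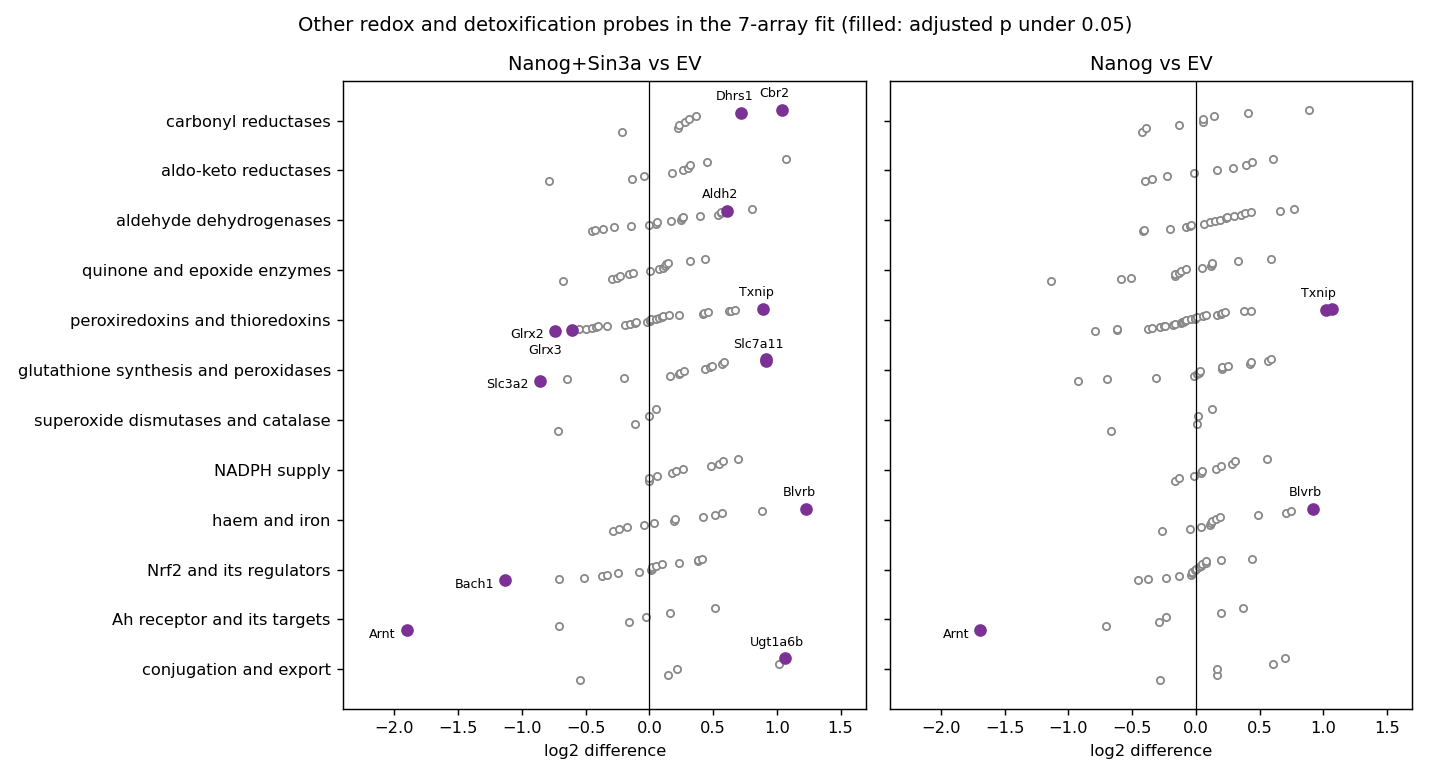
Log2 difference of each tested probe of the 12 lists (x axis), in rows by list, for Nanog+Sin3a against EV and for Nanog against EV. Filled points passed, and the 13 with both transgenes run from Arnt at -1.90 to Blvrb at 1.23.

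Among the 28 bright probes of these lists, 4 genes rose and 2 fell in Nanog+Sin3a against Sin3a, 21.4% against 11.6% of all bright probes. Aldh2 read 2223.8 and 2236.6 in Nanog+Sin3a, against 1493.4 and 1492.1 in Sin3a (log2 0.58, SE 0.11, limma adjusted p = 0.00124). Tkt, transketolase of the pentose phosphate pathway, rose by 0.54 (0.00627), Gpx4, which reduces lipid peroxides, by 0.39 (0.0125, and -0.11 in a dimmer probe) and Akr1a1 by 0.38 (0.0303, and 0.35 in a brighter probe, 0.0595). The ferritin chains Ftl1 (-0.38, 0.0112) and Fth1 (-0.25, 0.0475, and -0.03 in another probe) fell. In Sin3a against EV 0 of 28 passed, with 2 at an unadjusted p under 0.05, beside 7.72% of all bright probes.

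The genes most like Cbr3 and Prxl2a were sought among bright named probes that varied by at least 1 on the log2 scale, by Pearson's r over the 7 arrays. These values follow the groups and are a description. For Cbr3 (40 probes) the highest were Timp2 (0.99), Spop (0.98), Prnp (0.98), Tuft1 (0.95) and Anxa3 (0.93). Timp2, an inhibitor of matrix proteases, read 799.3 and 805.3 in Nanog+Sin3a, 601.7 and 627.7 in Nanog and 530.0 on the first Sin3a array, against 391.5 and 380.7 in EV. For Prxl2a (41 probes) they were Aldh3a1 (0.98), itself a member, Slc11a1 (0.95), Upp1 (0.95), Axl (0.94) and Ubl3 (0.91). Slc11a1, a metal carrier, read 743.7 and 579.8 in Nanog+Sin3a and 754.8 and 665.1 in Nanog, against 1302.0 on the first Sin3a array and 1162.7 and 1568.1 in EV.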

How the data were processed

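Total RNA from 8 samples was labelled with biotin and hybridised to Illumina bead arrays, per the labels' protocols. The deposited intensity values came from GenomeStudio, per the submitters' processing notes, with version and settings not given in the sources used here. Each array held 45281 probes. From 47.3% to 47.7% of values were below 0, so a background had been subtracted, and once sorted, 7 arrays differed by no more than 0.935% above the floor, as after quantile normalisation. Values below 16 were set to 16, and log2 was taken with no further normalisation. The annotation gave a single symbol to 34885 probes.

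The model was fitted with limma 3.58.1 under R 4.3.3 (lmFit and eBayes with an intensity trend, 1 coefficient per group), two-sided, with Benjamini-Hochberg adjustment over all probes of a fit and 3 (7 arrays) or 4 (8 arrays) residual degrees of freedom. The lone Sin3a array of the 7-array fit was assumed to vary like the other groups. For arrays, their number limits the precision. The members, lists, fits and alternatives were chosen with earlier results of these data known. All member probes were named. From each list up to 3 called genes with the largest change were named per comparison, or up to 2 as values where none was called, and the 5 probes most like Cbr3 and Prxl2a. Alternatives covered the floor, the filter, the bright limit, centring, array weights, the trend, 1 probe per symbol, the replicate block and each array left out.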

Additional observations from a re-analysis of the deposited data

How the results depend on the processing

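Over the single-probe member values under all alternatives, 750 kept their side of the threshold, and those of them not called moved by less than their SE. Another 83 lost the call, 10 gained one, and 30 with no call moved by their SE or more. Of values with a call in either fit 0 reversed. The sign of uncalled values was not part of this count, and some changed sign. Counts of member probes, list probes and all probes follow. Over all 8 arrays and all probes above the floor, Nanog against EV had 0, 0 and 0, Nanog+Sin3a against EV 2, 0 and 27, Nanog+Sin3a against Nanog 0 of all probes, Sin3a against EV 0 members and 0 of all, and Nanog+Sin3a against Sin3a 0 list probes and 19 of all. On bright probes of 8 arrays there were 2 members in Nanog against EV, 2 members, 7 list probes and 463 of all for Nanog+Sin3a against EV, and 1 member and 7 of all for Nanog+Sin3a against Nanog. On 7 arrays Sin3a against EV had 0 members and 0 of all, and Nanog+Sin3a against Sin3a 6 members, 1 list probe and 198 of all. With array weights, Nanog against EV had 10 list probes and 972 of all, and Nanog+Sin3a against EV 1843. With them, Nanog+Sin3a against Nanog had 1 member and 8 of all, Sin3a against EV 12 of all and Nanog+Sin3a against Sin3a 11 list probes. Over all probes above the floor the weights were equal within each group, at 0.0865 on both Sin3a arrays. They therefore did not single out the noisy array. A floor of 32 gave 601 for Nanog against EV, and 1 member and 18 of all for Nanog+Sin3a against Nanog, and a floor of 8 gave 237 and 0 of all. A filter of at least 1 array above the floor, chosen after seeing the data, gave 1 list probe and 163 of all in Nanog against EV, 4 and 571 in Nanog+Sin3a against EV, and 0 of all in Nanog+Sin3a against Nanog. The planned fit with no filter was not run, because probes at the floor on every array have no spread. A bright limit of 8 gave 0 members for Sin3a against EV, and one of 10, which leaves out Cbr3 and Aldh3a1, gave 0 members there (0 of all) and 0 members (151 of all) for Nanog+Sin3a against Sin3a. Median centring gave 7 of all for Sin3a against EV, and 1 probe per symbol or no intensity trend gave 2 list probes for Nanog against EV. Causes were not tested beyond what the settings themselves show.

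With the replicate number as a block, the counts of all probes were 196 (Nanog against EV), 573 with 5 list probes (Nanog+Sin3a against EV), 0 for Nanog+Sin3a against Nanog and 2 for Sin3a against EV, where Cbr3 was lost (0 members). Deviations of same-numbered arrays correlated from -0.053 to 0.016 over the tested probes and from -0.187 to 0.063 over bright probes. These values show no clear shared deviation of same-numbered arrays. They cannot tell whether such arrays shared a culture or a batch, and some of them use the noisy second Sin3a array.

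Leaving out 1 array at a time gave 0 to 6 members, 0 to 4 list probes and 0 to 426 of all for Nanog against EV, 0 to 8, 0 to 14 and 0 to 1183 for Nanog+Sin3a against EV, 0 to 1, 0 and 0 to 8 for Nanog+Sin3a against Nanog, 0 to 1, 0 and 1 to 14 for Sin3a against EV, 2 in every fit, 1 to 11 and 87 to 488 for Nanog+Sin3a against Sin3a, and 0, 0 and 0 to 21 for the difference of Sin3a effects. Probes near the floor are the least reliable, since a value below 16 gives only a bound.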

Other observations

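The superoxide dismutases and catalase, which handle superoxide and hydrogen peroxide, had no call in the comparisons above. The brighter Sod1 probe, for the cytosolic superoxide dismutase, read 2860.3 and 3227.4 in Nanog+Sin3a, 3537.3 and 3123.1 in Nanog and 3045.0 and 2973.3 in Sin3a, against 2927.9 and 3175.0 in EV. The groups overlapped, and the difference between Nanog+Sin3a and EV was -0.01 on the log2 scale (SE 0.11). A dimmer Sod1 probe near the floor gave -0.72 with both transgenes and -0.66 with Nanog (SE 0.24 each), and neither passed. Sod2, the mitochondrial enzyme, read 2641.5 and 2411.2 in Nanog+Sin3a, against 2472.2 and 2709.1 in Sin3a, a difference of -0.04. Catalase (Cat) was dimmer, at 133.9 and 95.3 in Nanog+Sin3a and 128.1 and 119.3 in Nanog, against 116.4 and 128.2 in EV. Its differences from EV were -0.11 with both transgenes and 0.02 with Nanog (SE 0.19 each).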
